A study of Mus musculus with 4 samples.

Results

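The class I PI3 kinases and the phosphatases that oppose them were followed here as 9 genes, taken from the expression table by their gene name, out of 53465 genes listed. They are the 4 catalytic genes *Pik3ca*, *Pik3cb*, *Pik3cd* and *Pik3cg*, the 3 regulatory genes *Pik3r1*, *Pik3r2* and *Pik3r5*, and the phosphatase genes *Inpp5d* and *Inpp4b*. All 9 were measured and all 9 passed the filter on low values (a mean over the libraries of 0.1 FPKM or more), which left 20116 genes for testing. The RNA came from cultured mouse FGSCs (female germline stem cells), a line that the labels trace to ovary. One group carried a control shRNA (shNC) and the other an shRNA against *Nat10* (shNAT10), the enzyme that places ac4C, an acetyl mark on cytidine, on RNA. Both were delivered by lentivirus with drug selection according to the methods, so the controls share the infection and the selection. Each group had 2 libraries of Long RNA-seq, called biological replicates, with no statement that they came from separate cultures or infections, so the p-values measure only the spread between these libraries. The levels are FPKM (fragments scaled by exon length and by a factor of each library that does not follow its fragment total), a scale on which genes can be compared per length, and the values of a group are given in the order of replicates 1 and 2.

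Class I PI3 kinases add a phosphate to the membrane lipid PIP2 and so make PIP3, which draws AKT and other proteins with lipid-binding domains to the membrane. A catalytic subunit works in complex with a regulatory subunit: the class IA catalytic genes *Pik3ca*, *Pik3cb* and *Pik3cd* pair with *Pik3r1*, *Pik3r2* or *Pik3r3* below tyrosine kinase receptors, and the class IB gene *Pik3cg* pairs with *Pik3r5* or *Pik3r6* below G protein-coupled receptors. *Pik3ca* and *Pik3cb* are used in most tissues, *Pik3cd* and *Pik3cg* mainly in blood cells, and in germ cells the pathway is known for its place below the receptor KIT. The phosphatases SHIP (*Inpp5d*, mainly in blood cells) and *Inpp4b* take phosphates off PIP3 and its product lipids.

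The regions just before the annotated start of a gene differed among the members in a way that the choice of genes did not use. RefSeq windows on GRCm38.p6 were found for 9 of 9 members, 13 starts in all, and 5 windows that hold no annotated exon are shown because they set starts of blood-cell genes beside starts of broadly used ones. Each is the 150 bases before the start, read on the strand of the gene, with every CpG dinucleotide in capitals.
*Pik3cd*, minus strand of chr4:149698709-149698858: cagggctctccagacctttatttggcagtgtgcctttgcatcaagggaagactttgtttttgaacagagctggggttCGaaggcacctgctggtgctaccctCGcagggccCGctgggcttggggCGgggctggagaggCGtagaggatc
*Pik3cg*, minus strand of chr12:32208660-32208809: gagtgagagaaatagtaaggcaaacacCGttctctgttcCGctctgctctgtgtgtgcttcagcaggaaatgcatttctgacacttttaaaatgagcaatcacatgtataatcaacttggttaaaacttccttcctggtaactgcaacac
*Inpp5d*, plus strand of chr1:87620162-87620311: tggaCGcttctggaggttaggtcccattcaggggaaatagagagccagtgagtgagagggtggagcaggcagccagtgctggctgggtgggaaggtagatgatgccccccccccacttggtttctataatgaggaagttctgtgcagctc
*Pik3ca*, plus strand of chr3:32396915-32397064: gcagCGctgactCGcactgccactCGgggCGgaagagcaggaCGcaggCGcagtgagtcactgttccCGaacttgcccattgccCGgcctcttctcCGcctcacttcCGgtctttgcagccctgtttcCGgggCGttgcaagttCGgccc
*Pik3r1*, minus strand of chr13:101768218-101768367: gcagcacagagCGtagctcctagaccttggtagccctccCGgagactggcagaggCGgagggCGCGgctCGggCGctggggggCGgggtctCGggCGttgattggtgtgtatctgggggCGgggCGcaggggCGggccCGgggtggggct
These windows of *Pik3cd*, *Pik3cg* and *Inpp5d* hold 5, 2 and 1 CpG, and those of *Pik3ca* and *Pik3r1* hold 13 and 14. The windows of the members not printed, *Pik3cb*, *Pik3r2*, *Pik3r5* and *Inpp4b*, hold 19, 17, 8 and 14. *Pik3cd* has 2 further annotated starts, with 14 and 1 CpG in the same length, *Pik3cg* has 1 more with 5 and *Pik3r1* 1 more with 4, so the contrast depends on the start, and which start these cells used was not measured. Over the full 250 bases before the start, the *Pik3r1* window had 30 CpG and a GC content of 76.4%, against medians of 6 CpG and 52.4% over all 32851 promoters. The letters GAGGAA, the core of a motif bound by ETS factors, were found on either strand in 3 of the 13 windows of 250 bases and in 23.3% of all promoters, and 1 match lies 20 bases before the *Inpp5d* start printed above. AGATAA, read by GATA factors, was found in 0 of the 13 windows and in 9.99% of all promoters. GTAAACA, read by forkhead factors, was found in 1 of the 13 and in 3.17% of all. Both strands were searched for each motif, matches of different motifs did not overlap in these windows, and 2 of the 13 windows, both of *Pik3cg*, overlap each other.

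Recovered from the FPKM, the libraries held 11057922 to 14902438 fragments and 21531 to 22599 genes above 0. *Nat10*, the targeted gene, was at 7.79 and 5.42 FPKM in shNC against 2.95 and 3.04 in shNAT10, a log2 fold change of -1.09 (SE 0.21). The labelled cell type was checked against its markers, and most of them were at or near 0. Of 12 germline stem cell markers, 5 (*Dazl*, *Pou5f1*, *Dppa3*, *Tfap2c* and *Sall4*) were listed at 0 in all 4 libraries, 9 had a mean under 0.1 FPKM, and *Ddx4* was above 0 in 1 library, at 0.053 FPKM, while *Ifitm3* was at 9.29 to 33.6 FPKM. Pan-leukocyte markers summed to 521 to 669 FPKM, among them the leukocyte surface phosphatase *Ptprc* at 15.3 to 15.5 FPKM in every library. The paper reports germline markers in its FGSCs, among them *Ddx4* and *Oct4* (*Pou5f1*), by RT-PCR and by immunofluorescence of DDX4 and OCT4. The RNA levels of *Ddx4* and *Pou5f1* here differ from that report, and the reason was not tested. The name FGSCs is therefore used only as the label of the cultures.

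The transcripts of the delta catalytic subunit, *Pik3cd*, stood far above those of the other members and were lower after *Nat10* knockdown. *Pik3cd* (ENSMUSG00000039936, chr4:149649168-149702571, minus strand of GRCm38) was at 81.4 and 70.4 FPKM in shNC against 46.6 and 50.9 in shNAT10. Both shNAT10 libraries were below both shNC libraries. The log2 fold change was -0.64 (SE 0.11, 95% interval -0.93 to -0.35, 0.644-fold), which passed the threshold of the study (over 1.2-fold and an unadjusted p of at most 0.05, here called passing) but not adjustment over all genes (limma, adjusted p = 0.111). A limma-voom test of the 19756 recovered fragments of the gene gave an adjusted p of 0.000119. Leaving out each library in turn gave -0.74 to -0.53, and without shNAT10 replicate 1 at a log2 fold change of -0.57, the gene no longer passed. *Pik3cd* was chosen by the study as a partner mRNA from libraries that include this comparison, so its fall is not independent evidence of a direction. In RNA from whole cultures, fewer cells that express a gene and less of its RNA per cell cannot be told apart.

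The beta catalytic gene *Pik3cb* (ENSMUSG00000032462, chr9:99036654-99140621, minus strand) had the lowest level of the 4 catalytic genes and changed the other way. It was at 0.840 and 0.984 FPKM in shNC against 1.64 and 1.43 in shNAT10. The groups did not overlap, and the rise was 1.62-fold (log2 fold change 0.69, SE 0.21, 95% interval 0.13 to 1.26, limma adjusted p = 0.239). Only 461 fragments in all 4 libraries stand behind it. The limma-voom test of those fragments gave an adjusted p of 0.0342. It did not pass in any of the fits that left out 1 library, where the log2 fold change was 0.59 to 0.80, nor when the fit held only genes with a mean of 1 FPKM or more.

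The alpha and gamma catalytic genes did not pass. *Pik3ca* (ENSMUSG00000027665, chr3:32397671-32468486, plus strand), the catalytic gene best known from tumor mutations, was at 5.59 and 5.37 FPKM in shNC against 4.84 and 5.17 in shNAT10. Its groups did not overlap, yet the log2 difference of -0.13 had a 95% interval from -0.43 to 0.18 (limma adjusted p = 0.615). *Pik3cg* (ENSMUSG00000020573, chr12:32173473-32208659, minus strand), the class IB catalytic gene, was at 14.0 and 12.7 FPKM in shNC against 14.4 and 12.2 in shNAT10. Here the groups overlapped, with the lowest and the highest value both in shNAT10, and the interval of the log2 difference ran from -0.34 to 0.33. In the order of levels, *Pik3cd* was above *Pik3cg*, *Pik3cg* above *Pik3ca* and *Pik3ca* above *Pik3cb* in each library, and no 2 neighbours in that order had overlapping ranges.

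**Figure D1:**
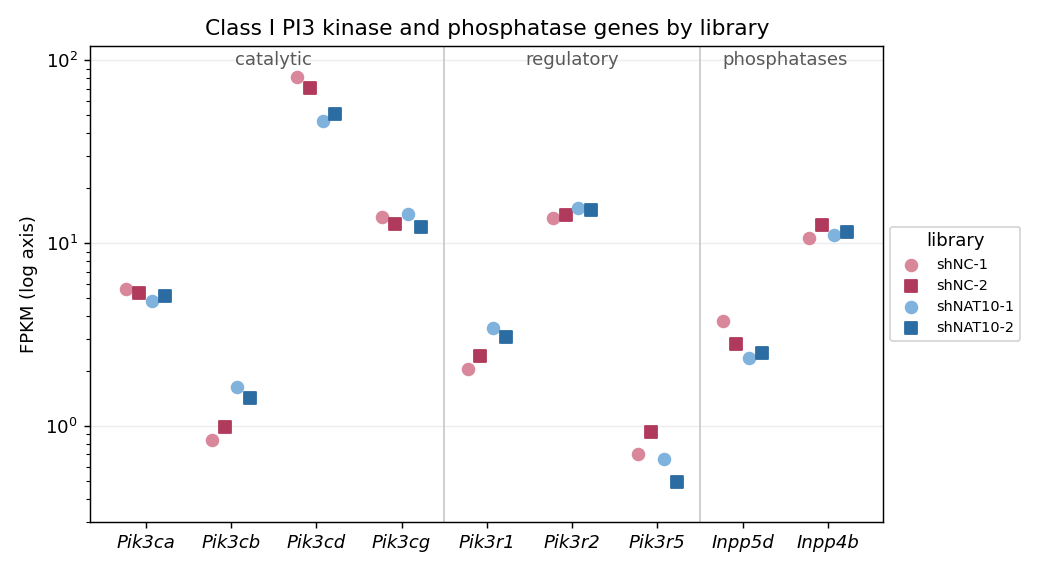
FPKM of the 9 genes (horizontal axis) in each library on a log axis, with circles for replicate 1 and squares for replicate 2, red for shNC and blue for shNAT10. *Pik3cd* lies at 46.6 to 81.4 FPKM with shNAT10 below shNC, while *Pik3cb* and *Pik3r1* lie higher in shNAT10.

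The make-up of the catalytic transcripts differed between the groups in each library, in a design too small for its test to pass 0.05. *Pik3cd* made 80.0% and 78.7% of the summed FPKM of the 4 catalytic genes in shNC and 69.0% and 73.0% in shNAT10, a difference of -8.31 percentage points. The share of *Pik3cg* was 13.7% and 14.2% in shNC and 21.4% and 17.5% in shNAT10. For *Pik3ca* the share was 5.50% and 6.0% in shNC and 7.17% and 7.42% in shNAT10. *Pik3cb*, the smallest part, made 0.826% and 1.10% in shNC and 2.43% and 2.06% in shNAT10. None of these 4 shares overlapped between the groups, and each had an exact two-sided permutation p of 0.3333, the smallest that 2 libraries against 2 allow. The shares are parts of the same sum, so a lower *Pik3cd* raises the others, and they are not separate results. As *Pik3cd* was chosen by the study from libraries that include this comparison, the direction of its share is not independent evidence either. The summed level of the 4 genes was 101.7 and 89.5 FPKM in shNC against 67.5 and 69.7 in shNAT10. Without *Pik3cd* the sum was 20.4 and 19.1 FPKM in shNC against 20.9 and 18.8 in shNAT10, where the groups overlapped (exact permutation p = 1). Counted as fragments and not per length, the *Pik3cd* share differed by -9.38 percentage points.

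**Figure D2:**
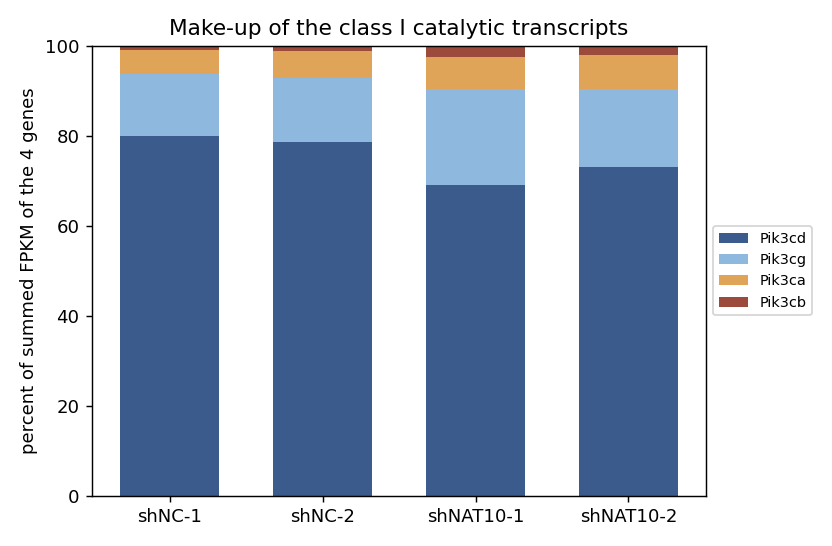
Percent of the summed FPKM of the 4 catalytic genes that each gene makes (vertical axis), as stacked bars for each library. *Pik3cd* fills 78.7% to 80.0% of the shNC bars and 69.0% to 73.0% of the shNAT10 bars, and the 3 other genes fill more of the bar in both shNAT10 libraries.

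Among the regulatory genes, *Pik3r1* rose and the other pair did not pass. *Pik3r1* (ENSMUSG00000041417, chr13:101680563-101768217, minus strand), which encodes the most widely used class IA regulatory subunit and its shorter forms, was at 2.04 and 2.42 FPKM in shNC against 3.43 and 3.05 in shNAT10. Both shNAT10 libraries were above both shNC libraries, at 1.44-fold (log2 fold change 0.52, SE 0.17, 95% interval 0.086 to 0.96, limma adjusted p = 0.244). Limma-voom gave an adjusted p of 0.0276. It passed without shNC replicate 2, and without shNC replicate 1, shNAT10 replicate 1 or shNAT10 replicate 2 it did not (log2 fold changes 0.41, 0.44 and 0.60). The table gives 1 value per gene, so the long and short forms were not separated.

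*Pik3r2* (ENSMUSG00000031834, chr8:70768176-70776713, minus strand), the second class IA regulatory gene, was at 13.8 and 14.3 FPKM in shNC against 15.6 and 15.3 in shNAT10. The shNAT10 values were the higher ones without overlap, but the log2 difference of 0.13 had an interval from -0.098 to 0.37 (limma adjusted p = 0.530). Of its exon length, 45 nt (1.08%) lie opposite the gene *6330537M06Rik*, at 2.80 to 4.0 FPKM, and whether counting used the strand is not given in the sources used here. *Pik3r5* (ENSMUSG00000020901, chr11:68432121-68497849, plus strand), the larger of the class IB adaptors, was at 0.706 and 0.926 FPKM in shNC against 0.660 and 0.494 in shNAT10. The groups did not overlap, and the log2 difference of -0.44 had an interval from -1.23 to 0.36, from 195 fragments in all.

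The ratio of regulatory to catalytic transcripts was higher in shNAT10, and most of that difference lay in the catalytic sum, where *Pik3cd* fell. The 3 regulatory genes summed to 16.5 and 17.7 FPKM in shNC against 19.7 and 18.8 in shNAT10, 1.13-fold, while the catalytic sum stood at 0.717-fold. The ratio of the 3 regulatory to the 4 catalytic genes was 0.162 and 0.198 in shNC and 0.292 and 0.270 in shNAT10, 1.56-fold higher in shNAT10 with no overlap (exact permutation p = 0.3333, the smallest possible). With *Pik3r3* and *Pik3r6* added it was 0.225 and 0.264 in shNC and 0.420 and 0.405 in shNAT10. Within class IA, a ratio chosen after the values were seen, the 3 regulatory genes, *Pik3r3* included, to the 3 catalytic genes stood at 0.189 and 0.230 in shNC and 0.398 and 0.356 in shNAT10. *Pik3r2* held 83.3% and 81.3% of the class IA regulatory FPKM in shNC and 73.8% and 74.7% in shNAT10, so it was the main one in each library. Within class IB, also chosen after the values were seen, *Pik3r6* held 88.8% and 84.6% of the adaptor FPKM in shNC and 90.8% and 93.7% in shNAT10.

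The phosphatase members did not pass. *Inpp5d* (ENSMUSG00000026288, chr1:87620312-87720507, plus strand), which encodes SHIP, was at 3.77 and 2.80 FPKM in shNC against 2.36 and 2.52 in shNAT10. Both shNAT10 values were below both shNC values, with shNC replicate 1 the highest. The log2 difference was -0.40 (SE 0.19, 95% interval -0.92 to 0.11, limma adjusted p = 0.399). Its size rested on the shNC libraries: the log2 difference was -0.19 without shNC replicate 1, where it did not pass, and -0.61 without shNC replicate 2, where it did. By limma-voom it passed, with an adjusted p of 0.144. *Inpp4b* (ENSMUSG00000037940, chr8:81342556-82127914, plus strand), which acts on the product of SHIP, was at 10.6 and 12.5 FPKM in shNC against 11.1 and 11.6 in shNAT10. Its shNAT10 values lay between the shNC values, and the interval of the log2 difference ran from -0.34 to 0.29. The ratio of both phosphatases to the catalytic sum was 0.142 and 0.171 in shNC and 0.200 and 0.202 in shNAT10, without overlap (exact permutation p = 0.3333, the smallest possible). The phosphatase sum itself was not higher, at 14.4 and 15.3 FPKM in shNC against 13.5 and 14.1 in shNAT10, so this ratio too follows the lower *Pik3cd*.

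Of the 9 members, 2 passed upward and 1 downward, where 8.41% of all tested genes passed upward and 7.83% downward. At an adjusted p under 0.05 there were 0 of 9 by limma, with 0.437% of all genes there, and 3 of 9 by limma-voom, with 8.63% of 18425 genes there. The groups did not overlap for 7 members, 4 lower and 3 higher in shNAT10, and for 48.0% of all tested genes. The median log2 difference of the members was -0.023, beside 0.0054 over all tested genes.

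**Figure D3:**
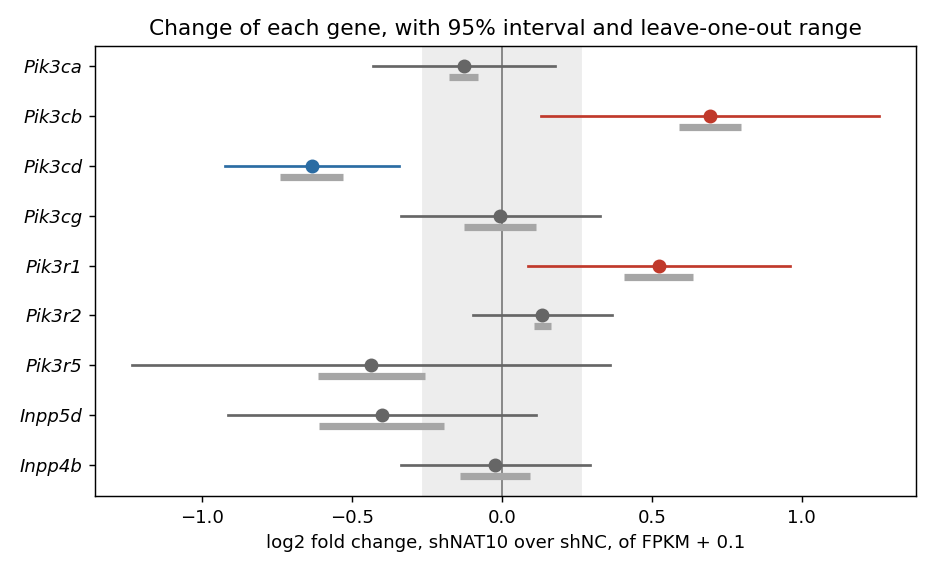
Log2 fold change of FPKM + 0.1, shNAT10 over shNC (horizontal axis), for each member, with points and thin lines for the estimate and its 95% interval and thick grey bars for the range over fits that left out 1 library. Red and blue mark genes that passed upward and downward, grey points did not pass, and the shaded band spans 1.2-fold either way. Only the intervals of *Pik3cb*, *Pik3cd* and *Pik3r1* leave out 0.

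The genes whose pattern over the 4 libraries lay nearest to that of *Pik3cd*, among 9713 protein-coding genes with a mean of at least 1 FPKM, were *Nfe2l1*, *Cygb*, *Zfp189*, *Kit* and *C2cd2*. Their root mean square differences from it, on centred log2 values, were 0.0146, 0.0153, 0.0181, 0.0196 and 0.0252. *Kit*, the receptor for stem cell factor and a user of class IA PI3 kinase, was at 24.5 and 21.2 FPKM in shNC against 14.5 and 15.6 in shNAT10. With only 4 libraries, many genes can lie this near.

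Of 112 other genes of the pathway, 104 were tested, 10 passed upward and 8 downward, with a median log2 difference of -0.065. All together 17.3% passed, near the 8.41% upward and 7.83% downward of all tested genes, so the calls below are given for single genes and not as a result about the pathway. Of the 104, 0 reached an adjusted p under 0.05 by limma. Before adjustment 19 were under 0.05, and by limma-voom 12 were under it after adjustment. Without shNAT10 replicate 1 the count that passed was 5, and without shNAT10 replicate 2 it was 7. Among the remaining regulatory subunits and adaptors, 2 of 4 rose and 1 fell. *Pik3r3*, the third class IA regulatory gene, was at 0.723 and 0.874 FPKM in shNC against 2.10 and 2.12 in shNAT10 (log2 fold change 1.30, SE 0.20), the largest rise of a regulatory gene in this set, and limma-voom gave an adjusted p of 0.000480. *Pik3r6*, the *Pik3cg* adaptor, was at 5.62 and 5.07 FPKM in shNC against 6.55 and 7.29 in shNAT10 (log2 fold change 0.37). *Pik3ap1*, an adaptor that couples immune receptors to PI3 kinase, was at 3.84 and 5.32 FPKM in shNC against 2.53 and 2.92 in shNAT10 (log2 fold change -0.71). Class II and III PI3 kinases, which make other lipids, had 0 of 4 tested genes that passed, the most abundant being *Pik3c2a* at 10.8 to 13.1 FPKM.

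Upstream, 2 of 12 tested receptors rose and 1 fell. *Kit* fell (log2 fold change -0.60, SE 0.11). The growth factor receptor *Pdgfra* was at 6.74 and 5.08 FPKM in shNC against 10.8 and 10.2 in shNAT10 (log2 fold change 0.83), and *Met*, the hepatocyte growth factor receptor, was at 1.43 and 1.78 FPKM in shNC against 2.56 and 2.45 in shNAT10 (log2 fold change 0.62). Of 12 receptor adaptors 1 passed, *Grb2*, which links receptors to Ras and to GAB proteins, at a log2 fold change of 0.33. *Shc1*, the most abundant adaptor, differed by -0.08.

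Among 11 other phosphoinositide phosphatases tested, *Inpp5a*, which acts on soluble inositol phosphates, was at 7.08 and 7.95 FPKM in shNC against 4.91 and 5.69 in shNAT10. The groups were apart and it fell (log2 fold change -0.50, SE 0.14, limma adjusted p = 0.208). *Inpp5b*, the most abundant of the class at 14.8 to 17.5 FPKM, overlapped between the groups.

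Downstream, the AKT module had 2 rises and 1 fall among 14 genes. *Akt1* was at 22.4 and 24.5 FPKM in shNC against 27.1 and 29.2 in shNAT10, a log2 difference of 0.26 whose 95% interval began at 0.0071 but whose fold was just under 1.2 (limma adjusted p = 0.292). *Akt2*, the isoform best known in insulin action, rose from 5.62 and 5.29 FPKM in shNC to 7.30 and 7.14 in shNAT10 (log2 fold change 0.40). *Pdpk1*, the kinase that activates AKT, differed by -0.11. Of the pseudokinases that bind AKT, *Trib3* fell from 95.3 and 99.7 FPKM in shNC to 68.0 and 76.9 in shNAT10. *Trib2* was at 0.393 and 0.117 FPKM in shNC against 0.735 and 0.963 in shNAT10, a log2 fold change of 1.53 from 130 fragments in all. Leaving out shNC replicate 1 gave 2.12. It no longer passed when shNC replicate 2 (0.94) or either shNAT10 replicate was left out.

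Of 17 mTOR module genes, the translation repressor *Eif4ebp2* rose from 3.49 and 3.44 FPKM in shNC to 5.47 and 5.83 in shNAT10 (log2 fold change 0.69) and the ribosomal protein gene *Rps6* fell (log2 fold change -0.34), while *Mtor* differed by 0.0065. Among 13 tested genes of GSK3, FOXO and FOXO targets, *Sesn3* rose (log2 fold change 0.56), and *Sesn2* (log2 fold change -0.45) and *Klf2* fell. *Klf2*, a transcription factor gene activated by FOXO proteins in lymphocytes, went from 2.17 and 2.14 FPKM in shNC to 0.690 and 0.848 in shNAT10 (log2 fold change -1.38). *Gsk3a*, the most abundant of them, differed by -0.20 and did not pass. Of 17 effectors that bind PIP3 or act next to it, 0 rose, and *Dapp1*, at 35.2 to 40.7 FPKM the most abundant, differed by 0.11.

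**Figure D4:**
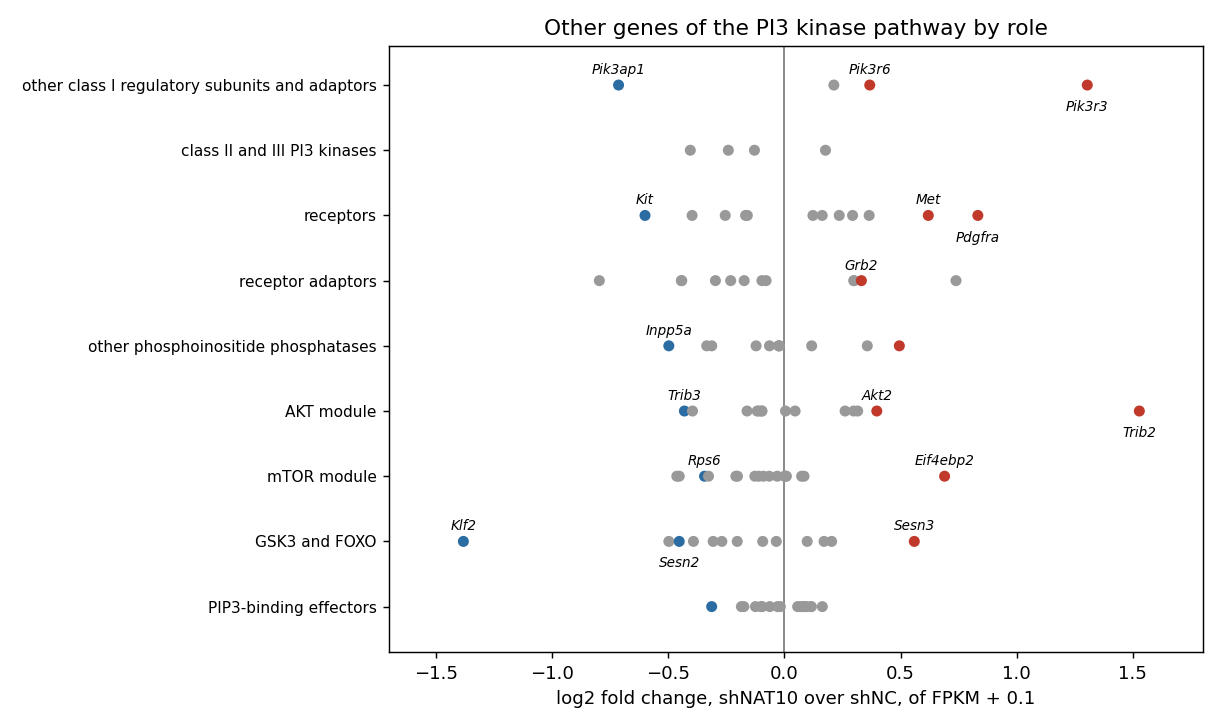
Log2 fold change of FPKM + 0.1, shNAT10 over shNC (horizontal axis), for the 104 tested genes of the wider pathway, in rows by role, with red and blue points for the 10 that passed upward and the 8 that passed downward, and names beside those described in the text. Rises and falls occur together in 6 of the 9 rows, and *Trib2*, *Klf2* and *Pik3r3* lie farthest from 0.

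Markers of blood cells also differed between the groups. Of 16 pan-leukocyte genes, 8 fell and 0 rose, with a median log2 difference of -0.29 and a summed level of 630 and 669 FPKM in shNC against 521 and 542 in shNAT10, though *Ptprc* differed by only -0.014. Over all tested genes, 8.41% passed upward and 7.83% downward. *Dock2*, among those that fell (log2 fold change -0.66), is a partner mRNA of the study, which screened its partners for lower expression after *Nat10* knockdown. Mast cell markers summed to 423 and 423 FPKM in shNC against 476 and 480 in shNAT10, with 2 rises (*Ms4a2*, *Il1rl1*) and 3 falls (*Kit*, *Gata2*, *Mitf*) among 7 tested of 12, while *Fcer1a* and *Tpsb2* were listed at 0. The higher sum rests largely on *Il1rl1*, at 101 and 90.9 FPKM in shNC against 146 and 155 in shNAT10. *Cpa3*, the largest part of the sum, did not pass. Macrophage markers summed to 65.3 and 70.6 FPKM in shNC against 50.3 and 55.2 in shNAT10, with 1 rise and 2 falls among 6 tested of 10 and *C1qa* and *C1qb* listed at 0. Of 8 fibroblast markers 3 of 7 tested rose, *Pdgfra* among them, and the sums were 47.3 to 54.2 FPKM in shNC and 55.7 to 65.2 FPKM in shNAT10, with *Lum* at 0. The summed germline markers were at 10.03 and 22.8 FPKM in shNC against 28.0 and 34.6 in shNAT10, nearly all of it *Ifitm3*, and 0 of 3 tested passed. Granulosa cell markers summed to 2.47 to 3.87 FPKM with 0 of 3 tested genes past the threshold and *Foxl2* and *Fshr* at 0, B and T cell markers to 0.824 to 1.88 FPKM with 0 of 2 past it, and endothelial and epithelial markers to 0.0844 to 0.374 FPKM with 0 of 1 past it. The part of these cell types in the differences of *Pik3cd*, *Pik3cb*, *Pik3r1* and the pathway genes was not tested. *Kit* is counted in both the receptor and the mast cell list, *Pdgfra* in the receptor and the fibroblast list, *Csf1r* in the receptor and the macrophage list, and *Rac2* and *Vav1* in the effector and the pan-leukocyte list.

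**Figure D5:**
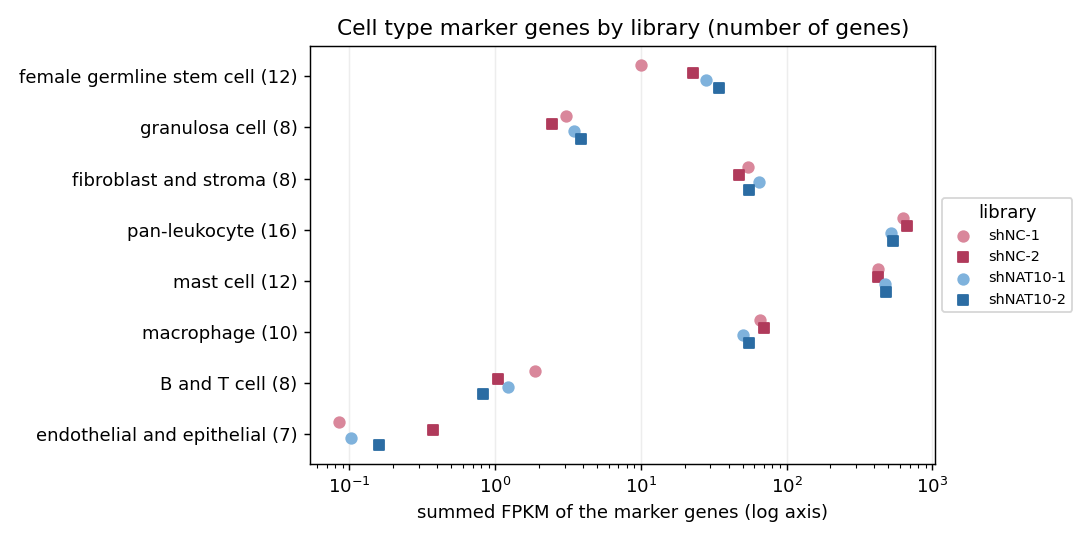
Summed FPKM of the genes of each marker list (horizontal log axis, number of genes in brackets) for each library, with circles for replicate 1 and squares for replicate 2. The pan-leukocyte and mast cell sums lie at 423 to 669 FPKM, and the granulosa, lymphocyte, endothelial and epithelial sums lie under 4 FPKM.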

How the data were processed

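The authors sequenced paired-end Long RNA-seq libraries of shNC and shNAT10 FGSCs, 2 per group, and deposited FPKM for 53465 genes. According to the submitters' processing notes, the authors used cutadapt, HISAT2 and DESeq2 with mm10. Their methods describe rRNA depletion and their labels mRNA isolation, so the records differ. The counting program and annotation are not given in the sources used here. The table of their own comparison (fold changes and p-values) was not used. Columns with values of single libraries left out numbered 0.

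Libraries were grouped by title. From the deposited FPKM, log2(FPKM + 0.1) was computed for genes with a mean of at least 0.1 FPKM and compared with limma 3.58.1 in R 4.3.3 (trend, two-sided, no term for replicate number, Benjamini-Hochberg adjustment). Fold changes on this scale understate those of low genes. Passing means over 1.2-fold and p of at most 0.05, the study's threshold. Median-ratio factors of the deposited values were 1.00 in each library. Whole fragments (within 0.02 for 96.0% to 96.6% of values under 50 fragments) were recovered with GENCODE M21 exon lengths, in which 53360 identifiers matched, and set the depth of 11057922 to 14902438 fragments. Intervals on differences come from limma. Shares and ratios were compared by exact permutation.

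The members and all lists were chosen with earlier results of these data known. The genes named are the members, *Nat10*, every pathway gene that passed (at most 4 per role), the most abundant gene of each role, *Akt1*, *Akt2*, *Pdpk1* and *Mtor*, the 5 genes nearest to *Pik3cd*, and markers at 0, apart from some that are not reported here. Other markers and the class IA and class IB ratios were chosen after their values were seen. *Itgam* has 2 identifiers, of which the one with the higher mean was used. Alternatives were other pseudocounts, filters and scalings, no trend, a replicate block, limma-voom on recovered fragments, and each library left out. The limma fits were tested on simulated data. Promoter windows are from RefSeq (GRCm38.p6). Python 3.11.15 with numpy 2.4.6, pandas 2.3.3 and matplotlib 3.10.9 did the rest.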

Additional observations from a re-analysis of the deposited data

How the results depend on the processing

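The same 3 members (*Pik3cd* lower, *Pik3cb* and *Pik3r1* higher) passed with a pseudocount of 1 or 0.01, no filter, median-ratio rescaling, the same FPKM total once rRNA-related loci and genes under 200 nt were set aside (rRNA-free total), quantile normalization and no trend. With a mean FPKM of at least 1, *Pik3cb* did not pass, and limma-voom added *Inpp5d*. Leaving out 1 library gave 0 to 3 members that passed and 5 to 13 pathway genes, a fit in which the lone library of a group is assumed to vary like the other group. *Pik3cg* and *Inpp4b*, which did not pass in any fit, changed sign: *Pik3cg* was at 0.011 under quantile normalization and at -0.13 to 0.11 when 1 library was left out, and *Inpp4b* at -0.14 to 0.093. Pathway genes that passed numbered 18, and 13 with the rRNA-free total, 15 without the trend and 26 by limma-voom. Over all genes, 88 had an adjusted p under 0.05, and 0 to 1590 across the alternatives, with 0 under both other pseudocounts, no filter, no trend and each left-out library, 128 with the rRNA-free total, 143 under quantile normalization, 296 with a mean FPKM of at least 1 and 1590 by limma-voom. The cause was not tested. The *Pik3cd* share and the regulatory and phosphatase ratios kept their direction in every alternative run for them. Their groups did not overlap, so leaving out 1 library could not have reversed them, and those fits say nothing more.

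With replicate number as a block, 3 members and 14 pathway genes passed, and 1587 genes rose, 1527 fell and 0 had an adjusted p under 0.05. Libraries share only a number: deviations of same-numbered libraries correlated at 0.0071. The 2 libraries per group limit every p-value, and the 195 fragments of *Pik3r5* and 461 of *Pik3cb* limit those genes.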
